A study of Salmo salar with 13 samples.

Results

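The transcripts described here encode subunits of the mitochondrial respiratory chain and of ATP synthase in the saccus vasculosus (SV) of Atlantic salmon, a fish-specific organ on the floor of the hypothalamus that lies between blood and cerebrospinal fluid. They are the transcripts in the study's supplementary table of SV transcripts whose salmon, zebrafish or mouse gene name begins with nduf, sdha to sdhd, uqcr, cyc1, cox4 to cox8, atp5, at5g or atpk. The rule found 58 transcripts of 58 genes among the 1119 transcripts of that table used here and the 146780 transcripts quantified. The names gave 23 transcripts of ATP synthase, 2 of its inhibitor, 14 of complex I, 1 of complex II, 5 of complex III, 10 of complex IV and 2 of the NDUFA4 family. The remaining transcript, sdhaf2, entered through the letters of its name and encodes an assembly factor of complex II, not a subunit. That table was read in a shortened copy, so subunits missing from the 58 were not analysed here.

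SVs came from salmon of a commercial Aquagen strain that were 11 months old at the start of the experiment. SP-hold fish spent 16 weeks on short days (8 h of light), and SPLL fish were moved to constant light (8 weeks) after their first 8 weeks on short photoperiod, the regime used to induce smoltification. Fish of each photoperiod group were taken either from freshwater (FW) or from full-strength seawater (SW, 34 ‰) in which they had spent 24 h. SP-hold fish gave 4 libraries in FW and 3 in SW, and SPLL fish gave 2 in FW and 4 in SW. Constant light was used in the seawater tank, which means that salt and light cannot be told apart in SP-hold fish. The fish came from duplicate tanks that are not assigned to libraries here, so p-values measure the spread between libraries only.

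In the inner mitochondrial membrane, complex I takes electrons from NADH and complex II takes them from succinate. Complex III passes them on to cytochrome c and complex IV, cytochrome c oxidase, hands them to oxygen. The proton gradient built on the way drives ATP synthase. Most subunits are encoded in the nucleus, as all of the present set are, and are imported into the mitochondrion. Salmonids carry an ancestral whole-genome duplication, so that many subunits have several gene copies.

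Estimated reads per library ranged from 15346418 to 26502552, and every one of the 58 transcripts had at least 151 estimated reads in each library. Markers of coronet cells and the SV held 6.12% to 11.5% of summed TPM (abundance scaled by transcript length and library total) in the 13 libraries, erythrocyte markers 2.79% to 11.4%, and the single pituitary marker 0.000141% to 0.0411%. One library stood apart. In SPLL SW replicate 3 only 54196 transcripts had reads, while the other 12 libraries had 62912 to 70193, and it had the smallest TMM scaling factor (0.80 against 0.87 to 1.21), the highest erythrocyte share (11.4%, next 9.61%) and the highest share of ribosomal protein transcripts (17.1%, next 13.6%). Medians of the 58 in comparisons that use this library are given with and without it. Other counts, values of single transcripts, and medians of other gene groups and transcript sets include it unless stated otherwise. In whole tissue, fewer cells of a type and less RNA per cell cannot be told apart.

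The 58 transcripts together held 0.841 ± 0.142% of TPM (SD, n = 13 libraries). In SP-hold fish their share was 0.793 ± 0.0992% in FW (n = 4) and 0.721 ± 0.086% in SW (n = 3), and in SPLL fish it was 0.865 ± 0.0232% in FW (n = 2) and 0.966 ± 0.164% in SW (n = 4). By library, the share was 0.737, 0.809, 0.926 and 0.701% in SP-hold FW, 0.811, 0.64 and 0.714% in SP-hold SW, 0.881 and 0.849% in SPLL FW, and 0.876, 0.842, 1.20 and 0.943% in SPLL SW. The highest value was that of SPLL SW replicate 3, and all SPLL SW libraries lay above all SP-hold SW libraries. SP-hold FW overlapped with each of the other groups. On this scale ATP synthase held 52.4 ± 1.48% of the summed TPM of the 58, complex IV 19.3 ± 1.38%, complex I 18.1 ± 0.792% and complex III 4.94 ± 0.245% (SD, n = 13 libraries). The ranges were 50.1% to 54.9% for ATP synthase, 16.8% to 21.7% for complex IV and 16.7% to 19.6% for complex I. The complex IV proportion was lower in each SP-hold SW library than in any library of the other groups, and this was not tested.

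**Figure D1:**
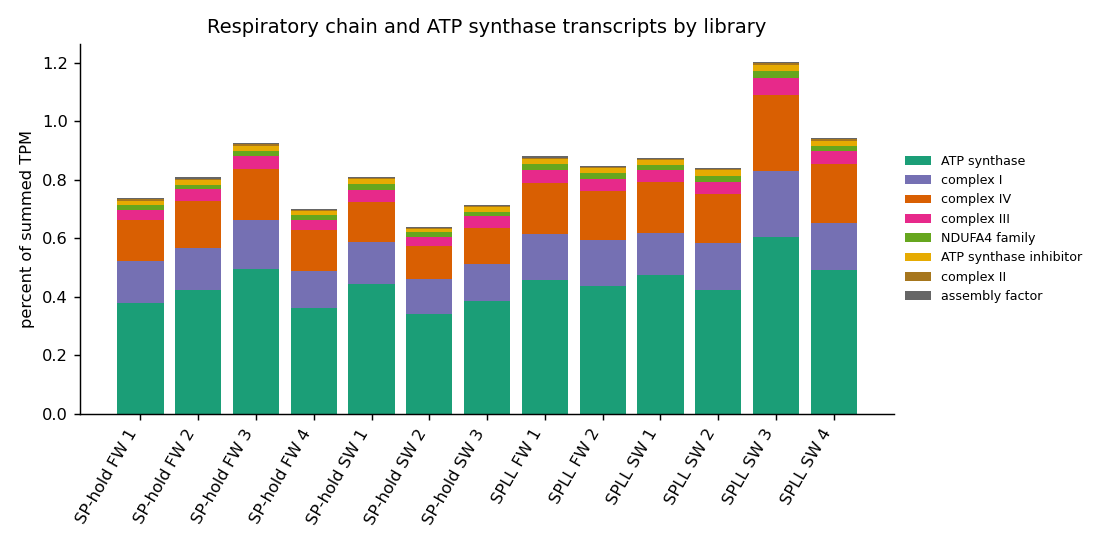
Percent of summed TPM held by the 58 transcripts in each of the 13 libraries, stacked by complex. The bars run from 0.64% in SP-hold SW replicate 2 to 1.20% in SPLL SW replicate 3, with ATP synthase as the largest block in each.

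Among single transcripts, mean TPM over the 13 libraries ran from 42 for sdhaf2 to 476 for ATP5L on chromosome 10, with a median of 97.5. ATP5L, subunit g of the membrane part of ATP synthase, had 476 ± 102 TPM, and the lowest of the synthase transcripts was usmg5, a small membrane subunit, with 62.3 ± 11.8 TPM (SD, n = 13). In complex I, ndufb9 was highest (259 ± 53.8 TPM) and ndufa1 lowest (44.9 ± 15.3 TPM), both accessory subunits without redox centres. In complex III, QCR6, the hinge protein, was highest (99.7 ± 28.9 TPM) and cyc1, the haem-bearing cytochrome c1, lowest (64.5 ± 6.55 TPM). In complex IV, cox6c was highest (360 ± 102 TPM) and COX5B on chromosome 18 lowest (86.1 ± 23.3 TPM). The only complex II subunit in the set, sdhc, which anchors the complex in the membrane, had 49.2 ± 8.25 TPM.

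The tests were edgeR quasi-likelihood tests over all 46395 transcripts whose median reached 0.77 CPM (reads scaled to the library total), with Benjamini-Hochberg adjustment over all of them, and all 58 were tested. Changes are log2 fold changes of reads scaled by TMM factors, with their standard error (SE). The 4-group test, at the study's false discovery rate (FDR) of 0.01, called 0 of the 58 (0.0625% of all transcripts), while 24 of 58 had an unadjusted p under 0.05 (16.4% of all). DESeq2 called 5 of the 58 in this test, beside 7.45% of all transcripts. The lowest FDR values of the set were 0.0882 for ndufa1, 0.101 for NDUFA4L2 and 0.114 for AT5G3 on chromosome 17.

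With edgeR and all 13 libraries, only the comparison of the photoperiod groups in seawater called any of the 58. In SPLL SW against SP-hold SW, 5 of the 58 passed an FDR of 0.05, and all 5 were higher in SPLL SW (of all transcripts 3.05% were called and 1.43% were called higher). On the Ssal_v3.1 assembly their genes lie as follows: ndufa1 on chromosome 5 from 25080018 to 25081416, ATP5I on chromosome 20 from 32200347 to 32202084, AT5G3 on chromosome 17 from 5776766 to 5779257, NDUFA4L2 on chromosome 12 from 90741722 to 90758260 and NDUFA5 on chromosome 17 from 55368456 to 55372094. Of the 58, 57 had a positive log2 change with a median of 0.87, against a median of -0.03 over all transcripts tested, and 36 had an unadjusted p under 0.05, all of them higher (9.79% of all transcripts had such a p and were higher). In 27 of the 58, every SPLL SW library was above every SP-hold SW library in normalised CPM (10.5% of all transcripts). Of the other 1061 transcripts of the shortened table from which the 58 were taken, 123 were called in either direction. Calls were thus not more frequent among the 58 than among these. Among these 1061, 47.7% had an unadjusted p under 0.05 in either direction, beside 36 of the 58. Their median log2 change was 0.38, beside 0.87 for the 58. DESeq2 called 28 of the 58, all higher, beside 6.09% of all transcripts called higher.

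**Figure D2:**
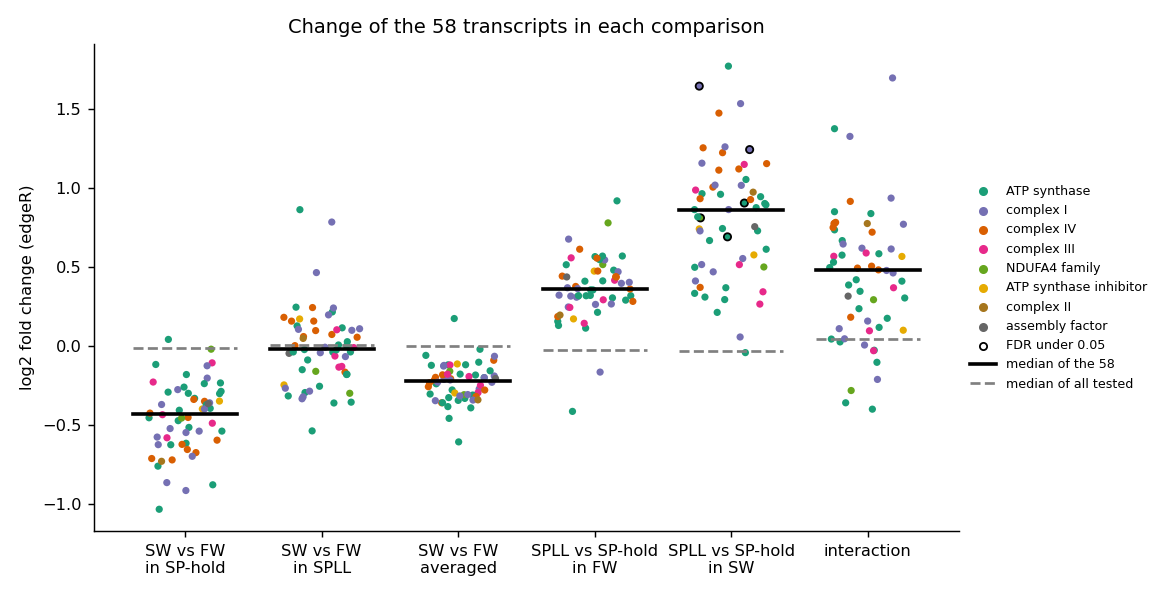
Log2 fold change of each of the 58 transcripts in 6 comparisons (edgeR), coloured by complex, with outlined points at an FDR under 0.05. Black bars give the median of the 58 and dashed grey bars that of all 46395 transcripts tested. The medians of the 58 are -0.43, -0.01, -0.22, 0.36, 0.87 and 0.48 from left to right, and outlined points stand only in SPLL against SP-hold in SW.

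The gene ndufa1 (chromosome 5) encodes a small membrane subunit that mammalian complex I needs for its assembly. Its normalised CPM was 42.5, 29.2, 76.8 and 35.8 in SPLL SW and 14, 16.3 and 13.8 in SP-hold SW, with 21.6, 23.8, 32.8 and 28.6 in SP-hold FW and 32.8 and 33.8 in SPLL FW. The seawater groups did not overlap, and the lowest SPLL SW library was still above the highest SP-hold SW library. The log2 change was 1.65 (SE 0.30), with an FDR of 0.0248, and on the log2(TPM + 1) scale (limma) it was 1.13 with an FDR of 0.0366. NDUFA5 (chromosome 17), another accessory subunit of complex I, had 45.1, 40.8, 79.9 and 40.5 CPM in SPLL SW and 16.1, 29.6 and 19.5 CPM in SP-hold SW. These groups did not overlap either, and the log2 change was 1.25 (SE 0.29, FDR 0.0476), or 0.79 (FDR 0.049) on the log2(TPM + 1) scale. With SPLL SW replicate 3 left out, neither ndufa1 nor NDUFA5 was called on that scale, where 68 of all 46395 transcripts were called.

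For ATP synthase, ATP5I (chromosome 20) encodes subunit e, which helps to join synthase dimers in yeast and mammals. It had 27.9, 24.9, 43.9 and 25 CPM in SPLL SW and 15.5, 17.7 and 15.4 CPM in SP-hold SW, with a log2 change of 0.91 (SE 0.19, FDR 0.0395). AT5G3 on chromosome 17 encodes subunit c, the building block of the rotor ring. It had 41.1, 32.3, 48.6 and 34.1 CPM in SPLL SW and 20.6, 25.6 and 26.2 CPM in SP-hold SW, with a log2 change of 0.69 (SE 0.15, FDR 0.0399). In both transcripts the groups did not overlap in normalised CPM. The 4 SP-hold FW libraries, at 22.2 to 28.2 CPM for ATP5I and 35.1 to 40.9 CPM for AT5G3, also lay above the SP-hold SW libraries. In TPM the seawater groups stayed apart for ATP5I. For AT5G3 they overlapped, with 65.2 to 78.2 TPM in SPLL SW and 45.5 to 71.3 TPM in SP-hold SW. SP-hold FW and SP-hold SW overlapped in TPM for both transcripts. Both calls were lost on the log2(TPM + 1) scale, where the change was 0.45 (FDR 0.251) for ATP5I and 0.31 (FDR 0.401) for AT5G3 on chromosome 17, with a median of -0.21 over all transcripts.

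NDUFA4L2 (chromosome 12) is a relative of NDUFA4 that mammalian cells raise under low oxygen and that marks pericytes in mice. It had 139, 127, 180 and 119 CPM in SPLL SW, 73.6, 88 and 79.1 CPM in SP-hold SW, 88.4, 98.1, 125 and 128 CPM in SP-hold FW and 140 and 175 CPM in SPLL FW. Both SPLL groups lay above the SP-hold group in the same water, with a log2 change in seawater of 0.81 (SE 0.18, FDR 0.0412). On the log2(TPM + 1) scale this change was 0.46 and missed the threshold (FDR 0.195). In freshwater the change was 0.52 (SE 0.19) with an FDR of 0.466, the lowest FDR of the 58 in that comparison. Markers of mural and vascular cells, 10 transcripts, had a median log2 change of 0.29 in seawater, with 7 of 10 higher and 1 called, and of 0.44 in freshwater, with 10 of 10 higher and 0 called. Their summed share was 0.171% to 0.333% of TPM. In seawater it was 0.275 ± 0.0569% in SP-hold and 0.275 ± 0.0512% in SPLL, and in freshwater 0.237 ± 0.0469% and 0.314 ± 0.0257% (SD). Their part in the NDUFA4L2 result was not tested. The related ndufa4a, whose mammalian counterpart is now counted as a subunit of complex IV, had 61.4, 63.3, 152 and 46.4 CPM in SPLL SW and 58.5, 72.4 and 40.4 CPM in SP-hold SW. Its groups overlapped, and its log2 change was 0.50 (SE 0.37, FDR 0.565). Without SPLL SW replicate 3 its change was -0.0011.

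**Figure D3:**
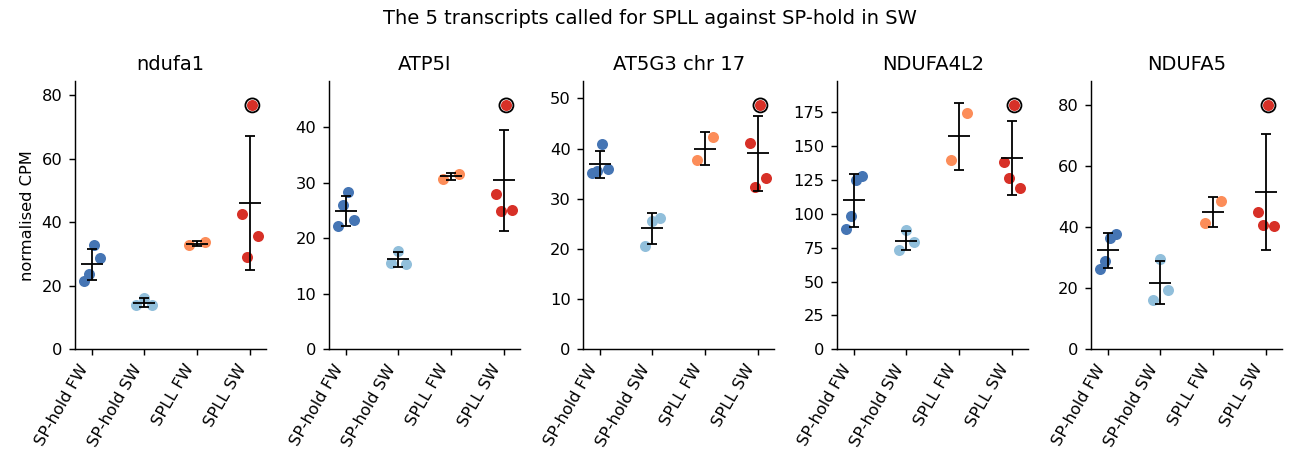
Normalised CPM of the 5 transcripts called for SPLL against SP-hold in SW, by group. Points are libraries, bars the mean ± SD, and the ringed point is SPLL SW replicate 3, the highest SPLL SW library in each panel. For ndufa1 the SP-hold SW libraries sit between 13.8 and 16.3 and the SPLL SW libraries between 29.2 and 76.8.

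By complex, the median log2 change in seawater was 1.12 for the 10 transcripts of complex IV, 0.94 for complex I, 0.75 for ATP synthase and 0.52 for complex III, and differences between complexes were not tested. Without SPLL SW replicate 3 these medians were 0.69, 0.54, 0.45 and 0.31. In complex IV, 9 of 10 had an unadjusted p under 0.05 and none passed the FDR. The largest change of the set that did not pass was that of atp5mea, a further subunit e transcript on chromosome 1, at 1.77 (SE 0.46, FDR 0.0655). The inhibitor transcripts, whose protein blocks ATP hydrolysis by the synthase when the proton gradient collapses, had changes of 0.74 (SE 0.22, FDR 0.101) for atp5if1b on chromosome 1 and 0.58 (SE 0.26, FDR 0.261) for ATIF1 on chromosome 9. With all libraries, the catalytic beta subunit atp5f1b on chromosome 17 was the only transcript with a negative value, at -0.04 (SE 0.19). Without SPLL SW replicate 3 the change was 1.24 for atp5mea, 0.44 for atp5if1b on chromosome 1 and 0.29 for ATIF1.

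SPLL SW replicate 3 carried part of this difference. In normalised CPM it was the highest of the 13 libraries in 57 of the 58 transcripts, the exception being atp5f1b on chromosome 17. In TPM it was highest for ndufa1 (77.6) and NDUFA5 (70.8). For ATP5I it had 107 TPM, below SPLL SW replicate 2 with 108. For AT5G3 on chromosome 17 (65.2 TPM) and NDUFA4L2 (85.9 TPM) it was the lowest SPLL SW library. Without it the log2 change was smaller in all 58, their median was 0.47, and 52 of 58 remained above 0. In that fit 4 of the 58 were called, all higher, beside 0.929% of all transcripts called higher. Of these, ndufa1 (1.29, FDR 0.017) and ATP5I (0.68, FDR 0.0223) were also called with the library, while atp5if1b on chromosome 1 (0.44, FDR 0.0392) and cox6c (0.74, FDR 0.0466) were not. AT5G3 on chromosome 17 (0.57, FDR 0.0516), NDUFA4L2 (0.67, FDR 0.0589) and NDUFA5 (0.95, FDR 0.0594) then missed the threshold.

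**Figure D4:**
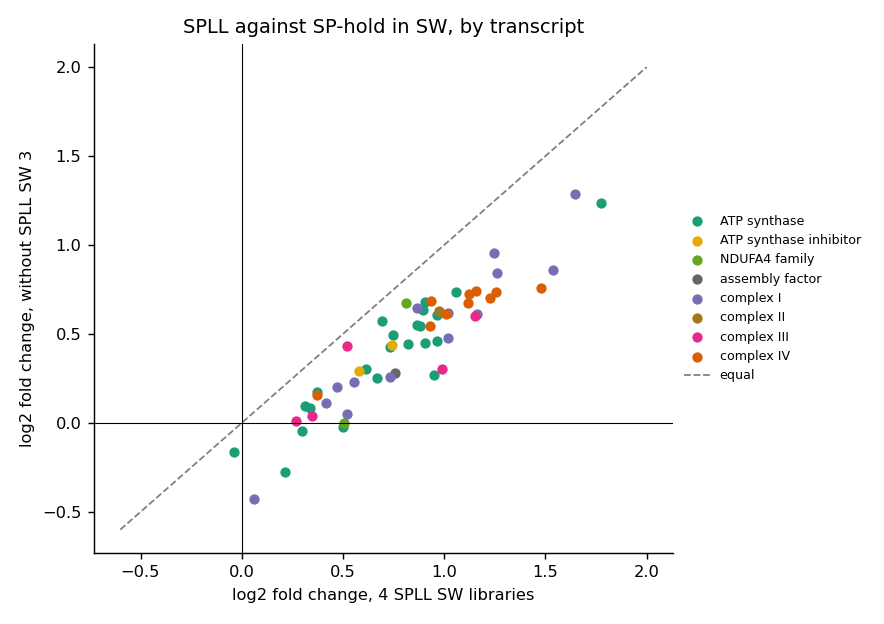
Log2 fold change in SPLL SW against SP-hold SW for each of the 58 transcripts, with 4 SPLL SW libraries (x axis) and without SPLL SW replicate 3 (y axis), coloured by complex. All 58 points lie below the dashed line of equal values, and 52 stay above 0 on the y axis.

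The calls also depended on the other libraries. Leaving out each of the 13 libraries in turn gave between 0 and 8 called transcripts, while the calls over all transcripts ran from 138 (0.297%) to 1346 (2.9%, without SPLL SW replicate 2, the fit that gave 8), with ndufa1 called in 9 of 13 fits, ATP5I in 4, NDUFA4L2 in 3, and AT5G3 on chromosome 17 and NDUFA5 in 2 each. The highest FDR of all 5 came without SP-hold SW replicate 1, at 0.112 for ndufa1 and 0.184 for NDUFA5. None of the 58 was called without SP-hold SW replicate 1, without SP-hold SW replicate 3 or without SPLL SW replicate 1, the fits that called 0.297%, 0.541% and 0.61% of all transcripts. Other settings also lowered both counts, with 1 of the 58 called with edgeR's filterByExpr (0.659% of the transcripts that it kept), 0 with no filter (0.18%), 2 with limma on log2(TPM + 1) (0.304%) and 0 with the replicate block (0.315%).

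In SP-hold fish, 24 h in seawater called 0 of the 58 (0.0841% of all transcripts) with edgeR, and DESeq2 called 1 lower, AT5G3 on chromosome 17, beside 1.49% of all transcripts called lower. Of the 58, 57 had a negative value with a median log2 change of -0.43, against -0.01 for all transcripts, and 11 had an unadjusted p under 0.05, all lower (5.22% of all). In 21 of the 58, every SP-hold SW library was below every SP-hold FW library in normalised CPM (7.07% of all). The lowest p-values belonged to AT5G3 on chromosome 17 (-0.61, SE 0.15, FDR 0.208), ATP5I (-0.62, SE 0.19, FDR 0.314) and QCR10 (-0.43, SE 0.14, FDR 0.315). QCR10, a small membrane subunit of complex III, had 42.5, 44.5, 53 and 50.4 CPM in SP-hold FW and 28.8, 39.6 and 37.3 CPM in SP-hold SW, without overlap. In TPM its group means were 83.5 in SP-hold FW and 82.8 in SP-hold SW, and on the log2(TPM + 1) scale its change was -0.02 (FDR 0.968). The values on that scale were -0.26 (FDR 0.603) for AT5G3 on chromosome 17 and -0.22 (FDR 0.657) for ATP5I. The median log2 change of the 58 on the log2(TPM + 1) scale was -0.15 while that of all transcripts was 0.21.

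In SPLL fish, seawater called 0 of the 58 with edgeR (0.269% of all transcripts) and 0 with DESeq2 (4.98%), and 0 had an unadjusted p under 0.05 (10.5% of all). Their median log2 change was -0.01, with 27 higher and 31 lower. The lowest p-values were those of atp5f1b on chromosome 17 (-0.35, SE 0.21, FDR 0.665), atp5f1c, the gamma subunit that forms the rotor shaft (-0.36, SE 0.24, FDR 0.725), and ndufa1 (0.47, SE 0.33, FDR 0.758). With SPLL SW replicate 3 left out, these changes were -0.48, -0.57 and 0.10. Without SPLL SW replicate 3 the median was -0.36 with 55 of 58 lower, and 1 transcript was called lower (ndufb4, beside 0.384% of all transcripts called lower). In 40 of 58 all remaining SPLL SW libraries then lay below both SPLL FW libraries in normalised CPM (18.8% of all). For ndufb4, an accessory subunit of complex I, the values were 36.8 and 33.6 CPM in SPLL FW and 21.2, 22.2, 53 and 19.3 CPM in SPLL SW. In TPM it had 106 and 88.9 in SPLL FW and 67.7, 90.9, 114 and 78.6 in SPLL SW, with overlap. The TPM share of the 58 was 0.881 and 0.849% in SPLL FW. Without replicate 3 it was 0.876, 0.842 and 0.943% in SPLL SW, so the lower values did not appear in that share.

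Averaged over the photoperiod groups, seawater called 0 of the 58 with edgeR (0.222% of all transcripts) and 0 with DESeq2 (3.97%), with a median of -0.22 and 57 lower. An unadjusted p under 0.05 was found for 4 of the 58, all lower (4.65% of all), with the lowest for AT5G3 on chromosome 17 (-0.32, SE 0.11, FDR 0.332), QCR10 (-0.25, SE 0.10, FDR 0.441) and NDUFA4L2 (-0.31, SE 0.13, FDR 0.468). On the log2(TPM + 1) scale the QCR10 value was 0.04. Without SPLL SW replicate 3, 3 transcripts were called lower in seawater (ATP5I, ATPD and ndufb4), beside 0.321% of all transcripts called lower. The median was then -0.41, and 58 of 58 were lower. In TPM, ATP5I had 98.9 and 90.7 in SPLL FW and 90.5, 108 and 103 in SPLL SW without replicate 3, with overlap. ATPD had 164 and 184 TPM in SPLL FW and 138, 131 and 139 in SPLL SW without replicate 3, without overlap. The TPM share of the 58 overlapped between FW and SW in both photoperiod groups.

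In freshwater, SPLL against SP-hold called 0 of the 58 with edgeR (0.0905% of all transcripts) and 0 with DESeq2 (3.26%). The median log2 change was 0.36 with 56 of 58 higher, against -0.02 for all transcripts. Of the 58, 1, NDUFA4L2, had an unadjusted p under 0.05 and was higher (2.87% of all). The other 1061 transcripts of the shortened table had a median of 0.23, and 84.4% of them were higher. Among these 1061, 14.7% had an unadjusted p under 0.05 in either direction. The 2071 tested transcripts under 1000 bases had a median of 0.29. An upward shift in freshwater was thus not particular to the 58. In 41 of 58 both SPLL FW libraries lay above all 4 SP-hold FW libraries (12% of all). This count is of normalised CPM. In TPM, the share of the 58 in SPLL FW (0.849% and 0.881%) lay within the SP-hold FW range of 0.701% to 0.926%. After NDUFA4L2 the lowest p-values were those of AT5G3 on chromosome 21 (0.57, SE 0.27, FDR 0.604) and ndufa4a (0.78, SE 0.41, FDR 0.654). The latter had 99.1 and 99.6 CPM in SPLL FW and 55.9, 50.7, 50.7 and 73.8 CPM in SP-hold FW. The transcripts below 0 were the atp5mf copy named ATPK (-0.41) and ndufb2 on chromosome 7 (-0.16).

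The interaction, the seawater change in SPLL less that in SP-hold, called 0 of the 58 with edgeR (0.226% of all transcripts) and 0 with DESeq2 (4.54%). An unadjusted p under 0.05 was found for 2 of 58, both positive (6.69% of all), ndufa1 (1.33, SE 0.44, FDR 0.277) and AT5G3 on chromosome 17 (0.58, SE 0.22, FDR 0.354), followed by ndufb2 on chromosome 7 (1.70, SE 0.77, FDR 0.427). The median was 0.48 with the whole set of libraries and 0.09 without SPLL SW replicate 3. Without that library the value was 0.97 for ndufa1, 0.45 for AT5G3 on chromosome 17 and 1.02 for ndufb2 on chromosome 7. The seawater changes of the photoperiod groups were therefore not shown to differ for any of the 58.

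Other gene groups had medians on the same side of 0. In SPLL against SP-hold in seawater, 165 ribosomal protein transcripts had a median log2 change of 0.71 with 2 called higher, 25 proteasome transcripts 0.66 with 3 called higher, and 24 transcripts of other mitochondrial proteins 0.43 with 2 called higher. For 12 glycolytic transcripts the median was 0.07 with 0 called, and for 11 of the vacuolar ATPase 0.25 with 0 called. In SP-hold seawater against freshwater the medians were -0.47 for ribosomal proteins, -0.35 for the proteasome, -0.21 for other mitochondrial proteins and -0.10 for glycolysis. The 17 transcripts listed as erythrocyte markers were hemoglobins and transcripts named Alas1, so not all of them mark erythrocytes only. Their median was 1.39 in SPLL against SP-hold in seawater, with 15 of 17 higher and 1 called lower. Without SPLL SW replicate 3 it was 0.91. Their part in the difference of the 58 was not tested.

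Transcript length also went with the direction. The median length was 718 bases for the 58, 730 for the ribosomal protein transcripts and 3226 for all transcripts tested. The 2071 tested transcripts under 1000 bases had a median log2 change of 0.48 in SPLL against SP-hold in seawater and -0.28 in SP-hold seawater against freshwater, and the 44324 longer ones had -0.05 and 0.0035. The other 1061 transcripts of the shortened table from which the 58 were taken had medians of 0.38 and -0.23. The part of length in the change of the 58 was not tested.

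Gene copies with the same zebrafish name were present for 9 subunits. Estimated reads were whole numbers in all 13 libraries for 16 of the 58 transcripts (within 0.001 of a read) and in none for 25, so that reads were shared out between similar transcripts for many copies. For atp5mf, subunit f of the synthase membrane part, 3 transcripts on unplaced scaffolds summed to 1037 ± 280 TPM (SD, n = 13), and none had whole reads in any library. The share of the copy named ATPK ran from 30.2% in SPLL FW replicate 1 to 64.7% in SPLL SW replicate 1, and the values of single atp5mf copies are uncertain for that reason.

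The copies of cox6a1, a subunit of complex IV, had whole reads in all libraries. The copy on chromosome 20 held 52.9 ± 3.00% of their summed TPM and the copy on chromosome 24 held 47.1% (SD, n = 13). For cox7a2a, another complex IV subunit, the copy on chromosome 1 held 53.1 ± 3.77%, and for atp5if1b the copy on chromosome 1 held 57.7 ± 3.66%. In TPM the pair named atp5l was the least even of the 9. Chromosome 10 gave 82.6 ± 2.03% and chromosome 4 the rest. These copies are 431 and 1346 bases long, and TPM is scaled by length. In estimated reads, SP-hold FW replicate 1 had 844 from chromosome 10 and 905 from chromosome 4. The same library had 213 reads of cox6a1 from chromosome 20 and 681 from chromosome 24. For atp5pf it had 178 from chromosome 16 and 381 from chromosome 17. In that library the order of these copies differed between TPM and reads. For atp5l this did not hold in every library. SPLL SW replicate 3 had 3038 reads from chromosome 10 and 2755 from chromosome 4. Some pairs had no whole reads in any library. There the copy with the higher TPM held 56.9 ± 3.07% for atp5f1b (chromosome 17) and 69.2 ± 3.53% for atp5mc3a (chromosome 21). That copy held 69.1 ± 2.83% for atp5pf (chromosome 16) and 71.1 ± 5.19% for ndufb2 (chromosome 17). ATP5J on chromosome 21 has the mouse name Atp5pf but another zebrafish name, so it was not counted in the atp5pf pair. Its mean was 243 TPM, against 214 for atp5pf on chromosome 16 and 94.1 on chromosome 17. Over the 13 libraries the more abundant ndufb2 copy ranged from 64.8% in SPLL SW replicate 3 to 83.1% in SP-hold SW replicate 1, and no test between groups was made for any copy.

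**Figure D5:**
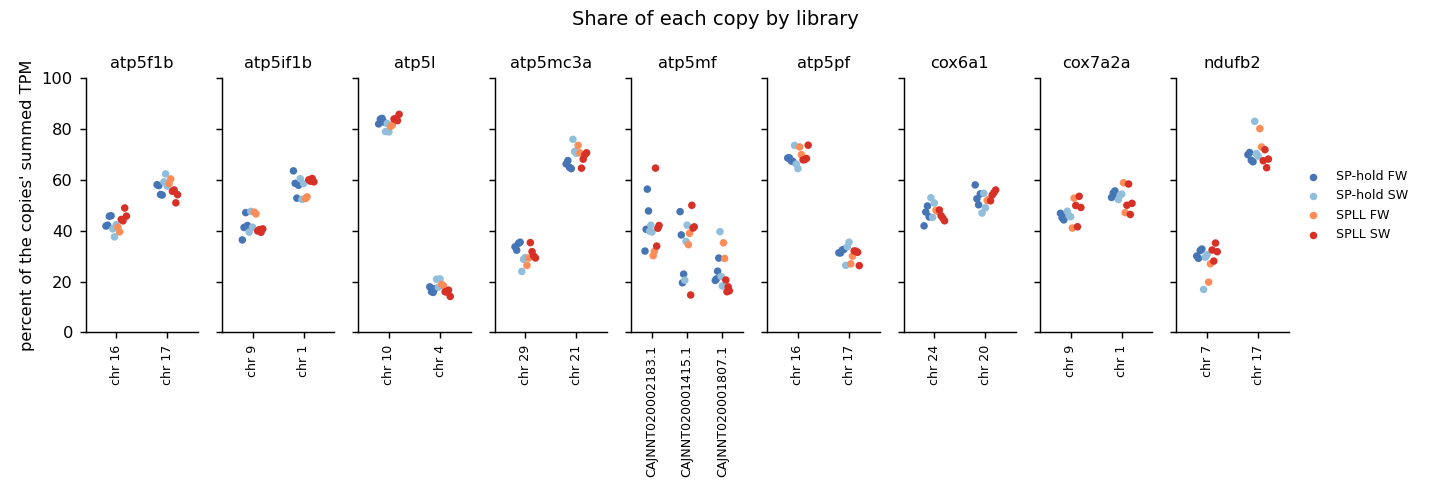
Share of each gene copy in the summed TPM of transcripts with the same zebrafish name, 1 point per library, coloured by group. The atp5l copy on chromosome 10 lies at 79% to 85.9% in all libraries, while the 3 atp5mf copies on scaffolds spread from 14.7% to 64.7%.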

How the data were processed

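SV messenger RNA of 13 salmon libraries was sequenced by the authors as single-end reads from stranded libraries. After trimming with Cutadapt, the authors ran Salmon 1.1.0 with its GC bias option against Ssal_v3.1 transcripts, and they left out 3 libraries. The deposited files give expected counts (estimated reads, which need not be whole) and TPM, which is scaled by effective transcript length. Reads that fit several transcripts were shared out by Salmon, so near-identical copies are uncertain. Names and positions come from the study's supplementary table.

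Estimated reads were rounded. Those with a median CPM of 0.77 or more (46395 of 146780 transcripts) were fitted with edgeR 4.0.16 (glmQLFit, TMM, 4 group means, 9 residual degrees of freedom) in R 4.3.3, at an FDR of 0.01 for the 4-group test and 0.05 for contrasts. SPLL FW has 2 libraries and shares the spread of the other groups. Shares of TPM and of copies were described without a test. Alternatives were DESeq2 1.42.0, limma 3.58.1 on log2(TPM + 1), other scaling factors and filters, the replicate number as a block and leaving out each library. Tables were summarised with pandas.

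The fits were tested on simulated counts with known changes. These were drawn independently for each transcript and library, with the mean CPM, library sizes and edgeR dispersions of the real data. edgeR, the main test, kept to its error rate there, under its own model. No shift shared by many transcripts of a library was simulated, so its error rate in the real libraries was not tested. DESeq2 called many more unchanged transcripts than its FDR allows, so its larger counts are given for completeness and nothing is read from them.

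The 58 transcripts and the gene lists were chosen with earlier results of these data known. Named transcripts are those past a threshold (up to 6 per contrast), the 3 with the lowest p in each contrast, the most and least abundant of each complex, gene copies with 1 zebrafish name, and atp5if1, ndufa4 and NDUFA4L2. Those called only when a library was left out, and atp5mea, were named after their values were seen. Deviations of libraries with the same replicate number had correlations of -0.0348 to 0.0893 (median 0.0037). For libraries with different numbers they were -0.087 to 0.0556 (median 0.0019). All were small, so numbers were not used as pairs.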

Additional observations from a re-analysis of the deposited data

Results flagged for a closer look

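Within the groups of 4 libraries, 60 sets of values (shares of TPM, copy shares and normalised CPM of the named transcripts) were searched for a library far from the others, by the gap to its nearest neighbour over the whole range. Chance gives about 1 in 20 such cases, and 9 were found, 6 of them in SPLL SW replicate 3. In that library the complex II share, which is sdhc alone, was 0.0066% of TPM against 0.00521% to 0.00544% in the other SPLL SW libraries. Its normalised CPM was 43.9 for ATP5I (others 24.9 to 27.9), 80.6 for atp5f1c (46.9 to 50.8), 159 for AT5G3 on chromosome 21 (75.1 to 85.7), 152 for ndufa4a (46.4 to 63.3) and 79.9 for NDUFA5 (40.5 to 45.1). The values of one library are not independent of each other. In SPLL SW replicate 4 the atp5pf copy on chromosome 16 held 73.7% of the summed TPM of the atp5pf pair (others 67.9% to 68.5%). In SP-hold FW, replicate 3 had 40.9 CPM of AT5G3 on chromosome 17 (others 35.1 to 35.9), and replicate 1 had 45 CPM of atp5f1c (others 56.8 to 58.9).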

How the results depend on the processing

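In SPLL against SP-hold in seawater the count of called transcripts was 5 as reported (1417 of all 46395 transcripts), 28 with DESeq2 (5478 of 46188), 1 with edgeR's filterByExpr (494 of 74965), 0 with no filter (197 of 109451), 2 with limma on log2(TPM + 1) (141 of 46395) and 0 with the replicate block (146 of 46395), and 5 with RLE or upper quartile factors (1352 and 1479 of 46395). Leaving out each library in turn gave 0 to 8, beside 138 to 1346 of all 46395. DESeq2 called 5 in the 4-group test (3443 of all 46189) and 1 in SP-hold seawater against freshwater (1369 of all 46188), where edgeR called 0 (29 and 39 of 46395), and in simulated counts it exceeded its error rate. Leaving out each library gave 0 to 1 for SPLL seawater against freshwater and 0 to 3 for the average over photoperiods, the highest both times without SPLL SW replicate 3. The replicate block changed no other count of called transcripts.

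The median log2 change in SPLL against SP-hold in seawater was 0.87, and 0.44 on the log2(TPM + 1) scale, where the median of all transcripts was -0.21. With SPLL SW replicate 3 left out on that scale as well, an alternative chosen after seeing the data, it was 0.35 with 0 called. In that fit 68 of all 46395 transcripts were called, and the median of all transcripts was -0.08. Leaving out each library gave 0.47 to 0.97 for this median and 0.0894 to 0.62 for that of the interaction. On the log2(TPM + 1) scale the QCR10 change averaged over photoperiods turned from -0.25 to 0.035, and to 0.074 without SPLL SW replicate 3. Of estimated reads the 58 transcripts held 0.313% in FW and 0.26% in SW for SP-hold fish, and 0.359% in FW and 0.379% in SW for SPLL fish. These shares are below those of TPM, which is scaled by transcript length. With hemoglobins and ependymins left out of the total, their TPM share was 0.997% in SPLL FW and 1.14% in SPLL SW. Of the remaining alternatives for single transcripts, complexes and copies, 470 left the value or call as it was, 67 lost a call, 1 gained one and 57 moved a share by more than its spread.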
